A study of Rattus with 12 samples.

Results

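Among the 12 complex rat cultures of this series, 3 held almost no transcripts of microglia and related macrophages, while the others held them at higher levels. The cultures compared here were chosen by their level of C1qa, a chain of complement component C1q that microglia make: 3 cultures under 20 CPM (counts of a gene per 1000000 gene counts of the culture) were called microglia-poor, and 8 cultures above 50 CPM were called microglia-containing. The same rule left out untreated culture G by name, although its C1qa, at 270 CPM, was above 50 CPM. So 11 of 12 cultures entered. The microglia-poor class was made up of untreated culture P, low dose culture Q and high dose culture R. The microglia-containing class was made up of untreated cultures A and M, low dose cultures B, H and N, and high dose cultures C, I and O.

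Each culture was seeded from primary Sprague Dawley rat cortical neurons, astrocytes and oligodendrocyte precursor cells (OPCs), and microglia were not among the seeded cell types. Fentanyl, an opioid agonist, was given for 4 days at 0.01 μM (the low dose cultures) or at 10 μM (the high dose cultures), or not at all, and poly(A)-enriched RNA was then sequenced. Because each class held all 3 treatment conditions, dose entered every comparison of the classes as a covariate. P, Q and R carry consecutive letters, as do A, B and C, H and I (with G), and M, N and O, and are called letter sets here. What a letter set shared was not given in the sources used here. The microglia-poor class was exactly 1 letter set, so the class and whatever P, Q and R shared cannot be told apart. No source states that cultures with different letters came from separate animals, and every error below describes the spread between these 11 cultures.

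Microglia are the resident macrophages of the brain parenchyma. They arise from yolk sac progenitors rather than from the neuroectoderm that gives neurons, astrocytes and oligodendrocytes, and they depend on the receptor Csf1r, which binds the growth factors Csf1 and Il34. Microglia sense injury and microbes through pattern recognition receptors, clear debris through lysosomes, and release complement and cytokines that act on astrocytes and synapses. A second group of macrophages lives at the borders of the brain, in the meninges and around vessels, and shares most of these genes. In RNA from a whole culture, fewer microglia and less RNA per microglial cell cannot be told apart.

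Total counts ran from 12059872 to 24813893 in the microglia-poor cultures and from 12907388 to 20156496 in the microglia-containing cultures, so 3 counts in a microglia-poor culture, taken here as the floor, came to between 0.121 and 0.249 CPM. Of 17337 gene symbols, 2226 had no count in any culture and 12337 passed the filter on low counts. Culture R, the deepest, stood apart in skeletal muscle genes (creatine kinase Ckm at 22.9 CPM, against 0.663 to 3.09 CPM in the other 10 cultures), and culture N in collagen genes. The library kit did not mark strand, and genes that overlap, or that have near-identical copies, may share reads.

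The values that define the classes are a description and not a result. C1qa stood at 7.46 CPM in P, 8.80 in Q and 8.79 in R, and at a lowest of 86.8 (culture A), a median of 145 and a highest of 283 CPM (culture N) in the microglia-containing cultures. The cultures nearest to the limits were therefore Q inside the microglia-poor class and A outside it. On the log2 scale of the fitted model the difference of C1qa was -4.16 (SE 0.37), a level 17.9-fold lower in the microglia-poor cultures. The other chains of C1q, C1qb and C1qc, were 13.8-fold and 18.5-fold lower, Csf1r was 18.5-fold lower, and Aif1, which encodes the actin-binding protein Iba1, was 20.3-fold lower. The summed level of these 5 markers was 39.1 CPM in P, 47.4 in Q and 37.8 in R, against 334 to 1446 CPM in the microglia-containing cultures, which did not overlap with them.

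Since the rule used this contrast for every gene, the counts of genes are given with no p for any single gene, and nothing is read from them. A gene was counted as higher or lower when its adjusted p in edgeR's quasi-likelihood test was under 0.05 and its log2 difference exceeded 0.5 in size. By these thresholds 593 of 12337 genes (4.81%) were higher and 724 (5.87%) were lower in the microglia-poor cultures. The microglia-poor cultures lay above all 8 microglia-containing cultures for 1355 genes (11%) and below all 8 for 1628 genes (13.2%). The median log2 difference of all genes tested was -0.02. The counts rested on all 3 microglia-poor cultures: they were 131 higher and 256 lower without P, 104 and 202 without Q, and 237 and 309 without R.

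Most listed genes of the macrophage lineage were lower in the microglia-poor cultures. Of 62 genes tested in 3 lists that leave out the 5 rule markers (microglial identity, pan-leukocyte and myeloid genes, and border macrophages), 49 were counted as lower, 0 as higher and 13 as neither, where 5.87% of all genes were counted as lower. These genes and the rule share the contrast, so the count is a description. For the 48 of these that held more than 3 counts in some microglia-poor culture, the fold ranged from 2.11 for Cyba, a subunit of the phagocyte oxidase that other cells also use, to 34.9 for Cd163, with a median of 12.1. All 49 were lower when the microglia-poor cultures were set against A-B-C, H-I or M-N-O alone, wherever the gene could be fitted. The 49 had been counted from the contrast with these same cultures, so this too is a description.

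Genes of microglial identity showed the same contrast. Cx3cr1, the receptor for neuronal fractalkine, had 1 count in P, 1 in Q and 0 in R, against 1.53 to 6.23 CPM in the microglia-containing cultures. Trem2, a lipid-sensing receptor that signals through Tyrobp, stood at 0.580 CPM in P, 0.819 in Q and 0.605 in R, against 4.93 to 13.4 CPM, and was 10.8-fold lower. Tyrobp itself was 13.5-fold lower, at 1.58, 2.12 and 2.26 CPM against 14.8 to 55.7 CPM. For both genes every microglia-poor culture was below every microglia-containing one. The transcription factors Spi1 (PU.1) and Irf8, which set macrophage fate, were 10.3-fold and 11.3-fold lower. The median log2 difference of the 19 identity genes tested was -3.38, and 12 of them were counted as lower (5.87% of all genes). With Cx3cr1 and P2ry13, which had no more than 3 counts in any microglia-poor culture, set at the floor, the median was -3.36. With only genes that had at least 10 counts in every culture, it was -0.58. That filter drops genes scarce in any culture, so the median of -3.38 rests largely on genes with few counts in the microglia-poor cultures.

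The label of the classes was checked against these markers. Tmem119 and P2ry12, which mark microglia in the healthy brain, had log2 differences of -3.97 and -1.66. Against A-B-C, H-I and M-N-O alone these were -3.00, -2.91 and -4.95 for Tmem119 and -0.36, -2.30 and -2.25 for P2ry12. Both genes were scarce even in the microglia-containing cultures. Their highest levels there were 11 CPM for Tmem119 and 5.83 CPM for P2ry12, both in culture N. Markers of border macrophages were at higher levels there. Cd163, a scavenger receptor for haemoglobin, stood at 0.995 CPM in P, 2.80 in Q and 1.33 in R, and at a lowest of 28.4, a median of 52.2 and a highest of 131 CPM in the microglia-containing cultures. Mrc1, the mannose receptor, was at 4.06, 3.69 and 3.14 CPM in the microglia-poor cultures, against 9.28 to 146 CPM, and was 13.5-fold lower. Of the 8 border macrophage genes tested, 7 were counted as lower, with a median log2 difference of -3.75, and the microglia-poor cultures were below all others for all 8. Of all genes 5.87% were counted as lower and 13.2% lay below all others. These bulk data show a class poor in macrophage-lineage transcripts, in which microglia and border macrophages cannot be told apart.

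General leukocyte genes followed. Of 35 tested, 30 were counted as lower (5.87% of all genes), with a median log2 difference of -3.33. Itgam, the integrin chain CD11b, stood at 0.829 CPM in P, 1.36 in Q and 1.21 in R, against a lowest of 14.7, a median of 28.2 and a highest of 70.8 CPM, and was 28.5-fold lower. Ptprc, the leukocyte phosphatase CD45, was 14.0-fold lower. Lyz2, the lysozyme of phagocytes, was the most abundant of the list, at 28.1, 32.8 and 42.1 CPM against 200 to 1112 CPM, and was 14.2-fold lower. The lysosomal marker Cd68 was 9.81-fold lower and Cybb, the catalytic subunit of the phagocyte oxidase, 14.8-fold lower. No class overlapped with the other for any of these 5 genes, where 13.2% of all genes lay below all others.

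The 10 lowest genes by the naming rule were Siglec1, Cd163, Fcna, Itgam, Aoah, Cox4i2, Ctla2a, Tifab, Ccr1 and Clec4a1. Siglec1, a sialic acid receptor of macrophages, stood at 0.415 CPM in P, 0.273 in Q and 0.645 in R, against 10.8 to 42.3 CPM, and was 52.1-fold lower. Fcna, a ficolin that starts the lectin pathway of complement, was 33.4-fold lower, at 0.725 to 0.751 CPM against 18.4 to 50.8 CPM. Aoah inactivates bacterial lipopolysaccharide, and Ccr1 is a chemokine receptor of myeloid cells. They were 27.3-fold and 24.8-fold lower. Clec4a1, 23.7-fold lower, belongs to a family of near-identical neighbouring lectin genes, so its reads are uncertain. Cox4i2, an isoform of a cytochrome oxidase subunit that is induced by low oxygen, was 25.2-fold lower, and its levels within the microglia-containing class were highest in A-B-C (11.7 to 15.0 CPM) and lowest in M and O (2.55 and 2.78 CPM).

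**Figure D1:**
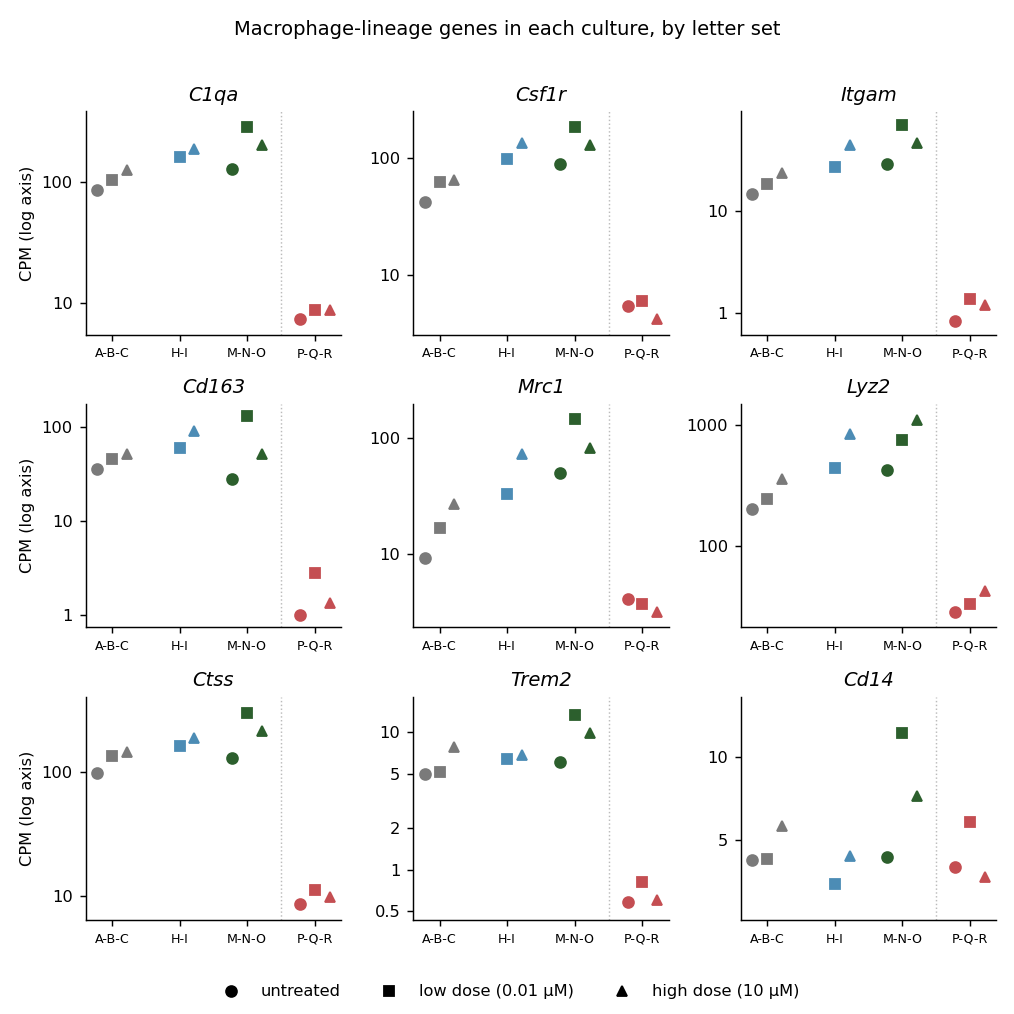
Levels of 9 genes listed for microglia, border macrophages or phagocytes, in CPM on log axes, in each of 11 cultures. Cultures are grouped by letter set and the symbol gives the dose, with the microglia-poor set P-Q-R right of the dotted line. For 8 of the genes the P-Q-R cultures lie below all others, and for Cd14 (3.45 to 12.3 CPM over all 11 cultures) they lie among them.

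Some genes used as microglial markers were not lower. Sall1, a transcription factor that neural progenitors also express, had a log2 difference of 0.37 (SE 0.13), Olfml3 of 0.31 (SE 0.40) and Rnase4 of 0.50 (SE 0.30). Cd14, the co-receptor for lipopolysaccharide, was at 3.98, 5.80 and 3.67 CPM against 3.45 to 12.3 CPM, with a log2 difference of -0.29 (SE 0.36). The classes overlapped for each of these 4 genes.

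Lysosomal and phagocytic genes were mixed. Of 29 genes of phagocyte lysosomes and disease-associated microglia, 8 were counted as lower (5.87% of all genes) and 2 as higher (4.81% of all genes), with a median log2 difference of -0.35. Ctss, a cysteine protease largely of myeloid cells, was at 8.62 CPM in P, 11.3 in Q and 9.87 in R, against a lowest of 98.4, a median of 154 and a highest of 301 CPM, and was 16.2-fold lower. The growth factor Igf1 was 11.4-fold lower and the scavenger receptor Msr1 was 13.2-fold lower. The broadly expressed proteases Ctsb and Ctsl had log2 differences of -0.37 (SE 0.10) and -0.09 (SE 0.28), and Lamp1, a membrane protein of all lysosomes, of 0.47 (SE 0.23). Apoe, a lipid carrier made by both astrocytes and microglia, was 1.52-fold lower, at 1050 to 1190 CPM against 1416 to 2007 CPM.

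Gpnmb, a lysosomal glycoprotein found in activated phagocytes and also in other lineages, ran the other way. It stood at 2249 CPM in P, 2179 in Q and 2699 in R, against a lowest of 336, a median of 816 and a highest of 1259 CPM, with a log2 difference of 1.71 (SE 0.33). All 3 microglia-poor cultures were above the 8 others, and within the microglia-containing class A-B-C held the least (336, 414 and 511 CPM). Cd9, a tetraspanin, was 1.55-fold higher. Mertk, a receptor that engulfs apoptotic cells and is made by astrocytes as well as macrophages, had a log2 difference of 0.70 (SE 0.27), with overlap of the classes.

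Ligands of microglial receptors, whichever cells made them, were mostly close between the classes. Of 9 ligands tested, 1 was counted as lower, where 5.87% of all genes were. Csf1 and Il34, the ligands of Csf1r, had log2 differences of -0.28 (SE 0.32) and -0.67 (SE 0.33), and the classes overlapped for each. Tgfb1, which keeps microglia in their homeostatic state, was at 1.91, 2.59 and 2.3 CPM in the microglia-poor cultures against 5.29 to 21.9 CPM, and was 4.41-fold lower. The fractalkine gene Cx3cl1, made by neurons, was at 331, 316 and 324 CPM, below the 404 to 549 CPM of the others, with a log2 difference of -0.44 (SE 0.11) that is under the threshold of size. Tgfb2 lay above all others, at 66.1 to 70.2 CPM against 28.8 to 59.3 CPM.

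Receptors of innate sensing were lower in part. Of 18 genes tested, 8 were counted as lower (5.87% of all genes). The endosomal receptors Tlr7, Tlr8 and Tlr9 were 16.4-fold, 17.2-fold and 10.4-fold lower, and the flagellin receptor Tlr5, at 1.58 to 2.32 CPM against 11.5 to 59.6 CPM, was 15.0-fold lower. Casp1 and Nlrp3, both of the inflammasome, were 8.77-fold and 6.68-fold lower. Tlr4, the receptor for lipopolysaccharide, was at 8.62 CPM in P, 8.26 in Q and 7.25 in R, above the 3.41 to 7.10 CPM of all 8 microglia-containing cultures, with a log2 difference of 0.51 (SE 0.22). Tlr3 had a log2 difference of -0.13 (SE 0.34).

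Most cytokines were not counted in either direction. Of 24 listed, 18 were tested and 3 were counted as lower (5.87% of all genes): Ccl6, Cxcl16 and Cxcl13. Cxcl13 was at the floor, with 3 counts in the microglia-poor cultures together. It could be fitted against H-I alone but not against A-B-C or M-N-O alone. Cxcl16 was 2.80-fold lower, at 11.4, 14.7 and 20 CPM against 30 to 73.8 CPM. Tnf had no count in P or Q and 0.161 CPM in R, against 0.352 to 1.72 CPM, and Il6 had no count in any microglia-poor culture, which allows up to 0.249 CPM. The chemokines Ccl2 and Ccl7 overlapped between the classes, with log2 differences of -0.35 (SE 0.68) and -0.42 (SE 0.59).

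The complement cascade beyond C1q was mixed. Of 17 genes tested, 7 were counted as lower and 1, the C1q-like gene C1ql1, as higher (2.44-fold), with a median log2 difference of -1.11. The shares of all genes were 5.87% lower and 4.81% higher. Cfb and Cfd, the proteases that start the alternative pathway, were 11.9-fold and 17.2-fold lower (Cfd at 0.415, 0.478 and 1.13 CPM against 3.88 to 30.8 CPM), and the anaphylatoxin receptors C3ar1 and C5ar1 were 23.5-fold and 12.9-fold lower. C3, the central component, was at 40.5, 54.8 and 306 CPM against 86.3 to 674 CPM, so that culture R lay among the others, and its log2 difference was -1.24 (SE 0.47). The serine proteases C1r and C1s, which form the C1 complex with C1q, had log2 differences of -0.37 (SE 0.21) and -0.38 (SE 0.19).

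Antigen presentation differed by letter set within the microglia-containing class. Cd74, the invariant chain of MHC class II, was at 0.0829 CPM in P, 2.39 in Q and 3.47 in R. It was at 2.47, 4.26 and 4.06 CPM in A, B and C, but at 56.8 to 136 CPM in H, I, M, N and O, so the microglia-poor cultures overlapped with A-B-C only. RT1-Ba, RT1-Da and RT1-Db1, chains of rat MHC class II, showed the same arrangement. RT1-Bb had no count in P, Q or R, was at 0.294 to 0.387 CPM in A-B-C, and was at 1.19 to 5.17 CPM in H-I and M-N-O. The class II chaperone genes RT1-DMa and RT1-DMb, in contrast, were 3.25-fold and 17.9-fold lower with no overlap. Of 20 genes in this list 8 were counted as lower (5.87% of all genes) and 0 as higher. Some RT1 genes are near-identical copies of each other, and the reads of such copies may be split between them.

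**Figure D2:**
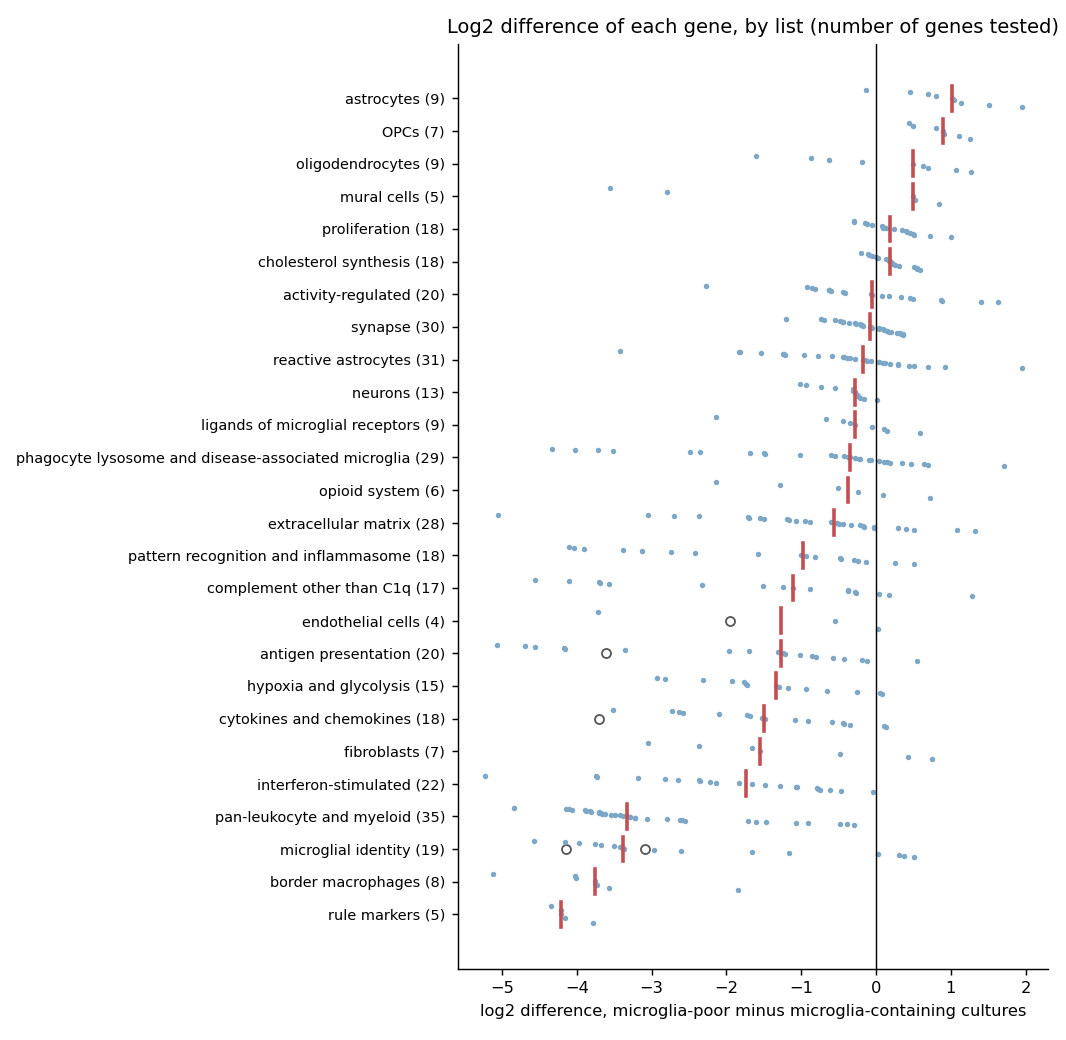
Log2 difference of each tested gene (microglia-poor minus microglia-containing cultures) for the 26 gene lists with at least 3 tested genes. Each dot is 1 gene, the red bar is the list's median, and open circles mark genes with no more than 3 counts in any microglia-poor culture, drawn at their floor. Medians run from -4.21 for the markers of the rule to 1.01 for astrocytes.

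Astrocyte genes were at higher levels in the microglia-poor cultures. Of 9 astrocyte markers 5 were counted as higher and 0 as lower, with a median log2 difference of 1.01, against a background of 4.81% of all genes counted as higher. Gfap, the intermediate filament of astrocytes that increases in reactive cells, stood at 5756 CPM in P, 6813 in Q and 4469 in R, against a lowest of 858, a median of 1674 and a highest of 1844 CPM, and was 3.85-fold higher. The water channel Aqp4 was 2.85-fold higher, at 733, 832 and 622 CPM against 176 to 332 CPM. S100b was 2.20-fold and Aldh1l1 2.06-fold higher, and for these 4 genes all microglia-poor cultures were above all others (11% of all genes). The glutamate transporters Slc1a2 and Slc1a3 overlapped between the classes, with log2 differences of 1.01 (SE 0.28) and 0.46 (SE 0.30), and the transcription factor Sox9 had a log2 difference of -0.14 (SE 0.18). Against A-B-C, H-I and M-N-O alone, the log2 difference of Gfap was 1.83, 1.97 and 2.10.

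Other genes of reactive astrocytes were mostly not counted. Of 31 tested, 1 was counted as higher (Gfap) and 4 as lower, with a median log2 difference of -0.18. The shares of all genes were 4.81% higher and 5.87% lower. Vim, another intermediate filament, had a log2 difference of -0.12 (SE 0.14). Lcn2, a secreted siderophore-binding protein, was at 106 CPM in P, 179 in Q and 1355 in R, against 67.2 to 664 CPM, so R was the highest of the 11 cultures, and the log2 difference was 0.50 (SE 0.47). The 4 counted as lower were Gbp2 (3.56-fold, at 18.2, 22.7 and 36.4 CPM against 39.4 to 183 CPM), Psmb8 (2.32-fold), Slc10a6 (10.7-fold) and Ggta1 (1.95-fold, with overlap of the classes). Fkbp5, Amigo2 and Serping1 had log2 differences of 0.18 (SE 0.10), -0.18 (SE 0.27) and -0.29 (SE 0.21).

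Genes of the oligodendrocyte lineage split by letter set. Of 7 OPC genes, 1 was counted as higher (Ptprz1, a receptor phosphatase of OPCs and astrocytes, 1.86-fold), and the microglia-poor cultures lay above all others for 5. Of all genes 4.81% were counted as higher and 11% lay above all others. Olig1, a transcription factor of the lineage, was at 508, 517 and 472 CPM in P, Q and R, at 247 to 422 CPM in H-I and M-N-O, and at 43.6 to 63.9 CPM in A-B-C. Mbp, a major myelin protein, was at 7999, 6961 and 6983 CPM in the microglia-poor cultures, at 3616 to 9672 CPM in H-I and M-N-O, and at 900 to 1427 CPM in A-B-C. Of 9 oligodendrocyte genes 0 were counted in either direction. Against A-B-C alone their median log2 difference was 2.23, against 0.50 for all 8 microglia-containing cultures.

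The 10 highest genes by the naming rule were Nos2, Gal, Nppb, FAM187A, Atp2a3, Myo7b, Ccdc103, Tll1, Bmp4 and Ncan. Nos2, the inducible nitric oxide synthase often used as a marker of activated macrophages, stood at 11 CPM in P, 11 in Q and 8.18 in R, against 0 to 1.72 CPM, and was 15.9-fold higher in the cultures with the fewest macrophage transcripts. Gal, the neuropeptide galanin, was 13.3-fold higher, at 8.87, 9.42 and 10.2 CPM against 0.299 to 1.51 CPM. Nppb encodes brain natriuretic peptide and was 10.6-fold higher, at 4.23 to 6.35 CPM against 0 to 1.09 CPM. The rule for these names admits only genes that do not overlap between the classes.

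Ncan, the chondroitin sulphate proteoglycan neurocan of the perineuronal matrix, was the most abundant of the 10. It was at 1835 CPM in P, 1707 in Q and 1731 in R, against a lowest of 220, a median of 352 and a highest of 581 CPM, and was 5.0-fold higher. Bmp4, a growth factor that directs OPCs and astrocytes, was at 148, 138 and 129 CPM, against 31.3 to 53.1 CPM in H-I and M-N-O and 5.29 to 10.2 CPM in A-B-C. Atp2a3, a calcium pump of the endoplasmic reticulum, had the same order, at 90.9 to 105 CPM, 17.2 to 26.0 CPM and 2.45 to 4.18 CPM. FAM187A and Ccdc103 lie directly beside Gfap in the rat GRCr8 annotation, in the order Ccdc103, FAM187A, Gfap. Their log2 differences of 2.83 (SE 0.57) and 2.42 (SE 0.47) went with that of Gfap, 1.94 (SE 0.19), and without strand, reads shared by neighbouring transcripts cannot be assigned to 1 of them.

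**Figure D3:**
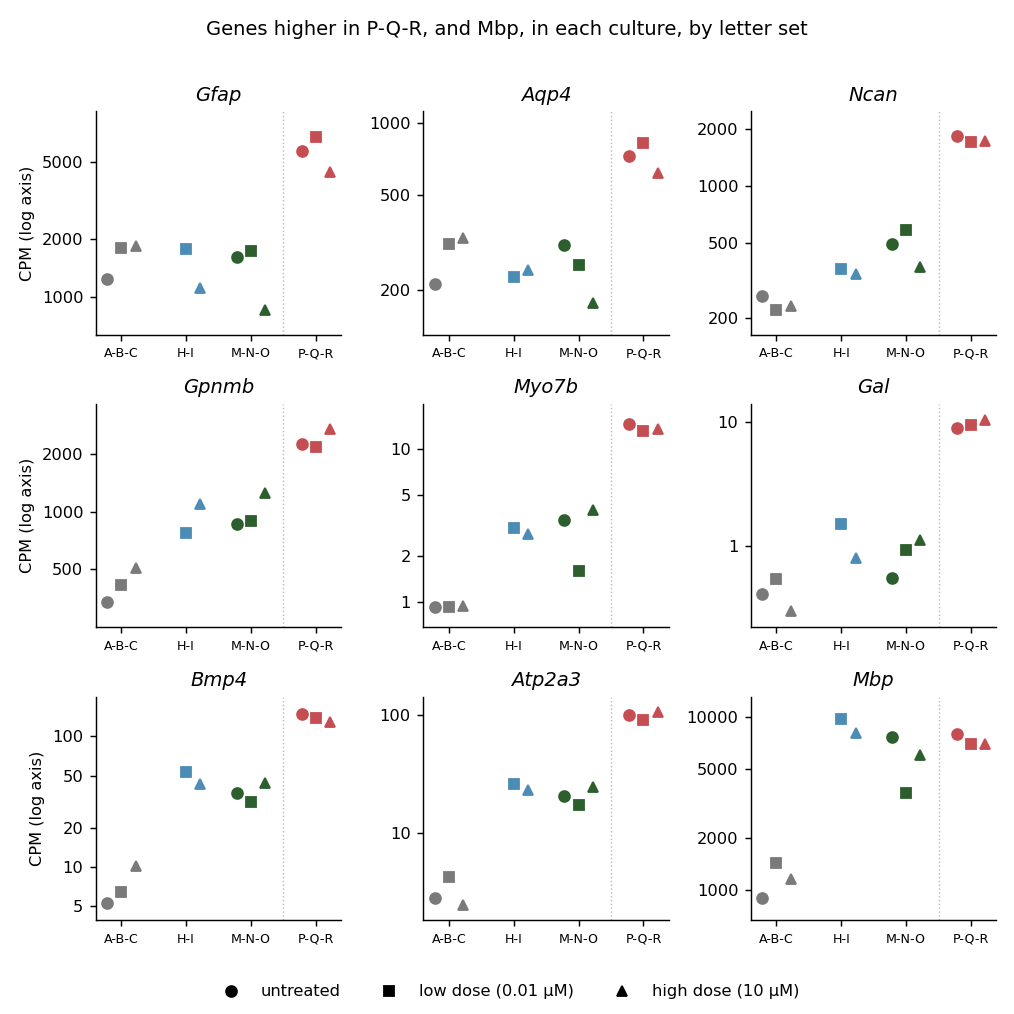
Levels of 8 genes that were higher in the microglia-poor cultures, and of Mbp, in CPM on log axes, in each of 11 cultures grouped by letter set, with the symbol giving the dose. For the 8 genes P, Q and R lie above all others (for Gfap 4469 to 6813 against 858 to 1844 CPM), while Mbp is low in A-B-C and overlaps elsewhere.

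Neuron markers were slightly lower in the microglia-poor cultures, with a median log2 difference of -0.28, while most synaptic genes were not counted in either direction. The summed level of 13 neuron markers was 3329 CPM in P, 3224 in Q and 3862 in R, against 3580 to 4824 CPM, and 4 of the 13 were counted as lower (5.87% of all genes). Rbfox3, the nuclear protein NeuN, had a log2 difference of -0.22 (SE 0.17) and Snap25, of the release machinery, of -0.28 (SE 0.16). Gad1 and Gad2, the enzymes that make GABA, were 2.03-fold and 1.92-fold lower, and the microglia-poor cultures were below all others for both (Gad2 at 16.2, 14.4 and 9.91 CPM against 21.9 to 32.0 CPM). Slc17a7, the vesicular glutamate transporter of excitatory neurons, overlapped, with a log2 difference of -0.31 (SE 0.19). Of 30 synaptic genes 4 were counted as lower (5.87% of all genes) and 0 as higher (4.81%), with a median log2 difference of -0.08. The kinase Camk2a, at 176, 143 and 243 CPM against a lowest of 319, a median of 417 and a highest of 537 CPM, was 2.31-fold lower, and its log2 difference was -1.12, -1.20 and -1.25 against A-B-C, H-I and M-N-O alone. Syn1, Syt1 and Stx1a were lower with overlap of the classes, whereas the receptor subunits Gria1, Gria2 and Grin1 had log2 differences of 0.04 (SE 0.13), 0.09 (SE 0.11) and -0.21 (SE 0.08).

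Genes induced by neuronal activity varied widely between letter sets, and 0 of 20 were counted in either direction. Arc was at 26.5, 39.2 and 11.8 CPM in P, Q and R, at 1.64 to 3.56 CPM in A-B-C, at 148 and 166 CPM in H-I and at 22.6 to 48.3 CPM in M-N-O. Bdnf was at 55.2 CPM in P, 65.6 in Q and 15.2 in R, against 1.37 to 41.9 CPM, and high dose culture R was the lowest of its letter set, as C, I and O were of theirs.

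Genes induced by low oxygen were lower in the microglia-poor cultures. Of 15 tested, 9 were counted as lower and 0 as higher, with a median log2 difference of -1.34, and the microglia-poor cultures were below all others for 11. Of all genes 5.87% were counted as lower and 13.2% lay below all others. Bnip3, a mitochondrial protein of hypoxic cells, was at 171 CPM in P, 175 in Q and 164 in R, against a lowest of 334, a median of 489 and a highest of 958 CPM, and was 3.40-fold lower. Vegfa, the endothelial growth factor, was at 87.1, 70.8 and 62.9 CPM against 131 to 507 CPM and was 3.80-fold lower. The glycolytic enzymes Ldha, Pgk1 and Hk2 were 2.52-fold, 2.45-fold and 7.05-fold lower. Within the microglia-containing class A, B and C held the highest levels of Bnip3, Vegfa, Ldha, Pgk1 and Hk2. Against H-I and M-N-O alone the median log2 difference of the list was -1.0 and -0.95, and against A-B-C alone it was -1.79. Adm and Pfkfb3, also targets of the hypoxia-inducible factors, had log2 differences of 0.06 (SE 0.08) and 0.08 (SE 0.15).

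Interferon-stimulated genes had a median log2 difference of -1.75, with the highest levels of Isg15 and Irf7 in A-B-C. Isg15 was at 3.23, 2.73 and 2.62 CPM in the microglia-poor cultures, at 25.2, 35.9 and 63.2 CPM in A, B and C, and at 3.25 to 8.01 CPM in H-I and M-N-O. Irf7, a transcription factor of the interferon response, was at 6.38, 3.82 and 6.0 CPM, at 80.2 to 139 CPM in A-B-C and at 7.35 to 26.9 CPM in the other microglia-containing cultures. Against A-B-C, H-I and M-N-O alone the median log2 difference of the 22 genes was -2.45, -1.22 and -0.56. The 3 of 22 counted as lower (5.87% of all genes) were Oasl, Bst2 and Gbp2. Bst2 was 3.16-fold lower (17.2, 17.4 and 31.7 CPM against 46.1 to 110 CPM).

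**Figure D4:**
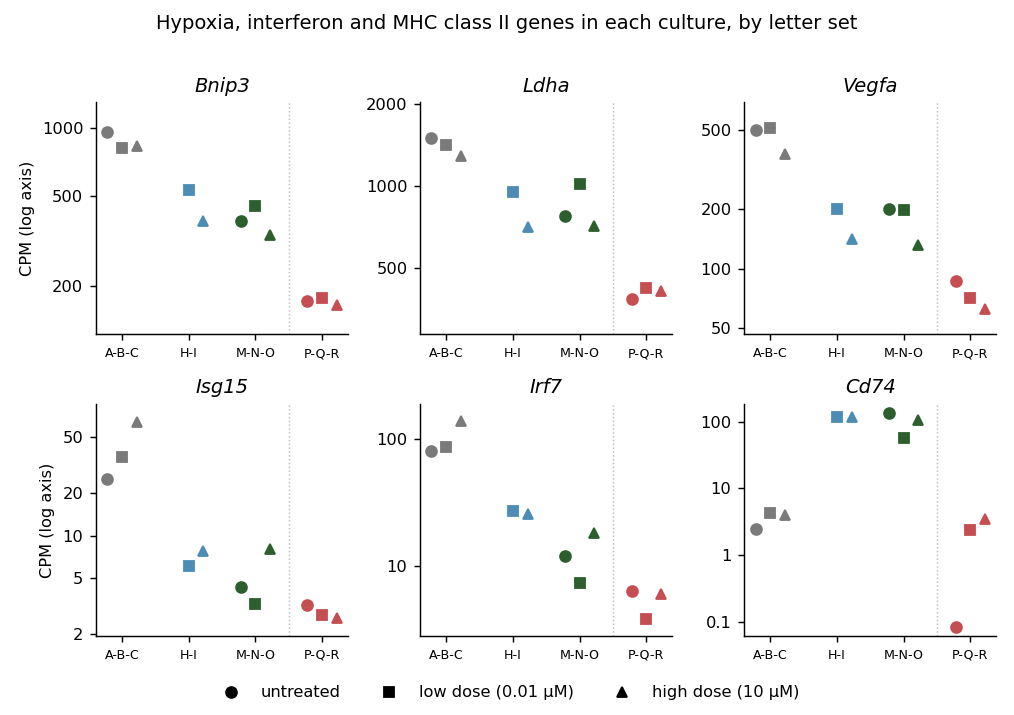
Levels of 3 hypoxia genes (Bnip3, Ldha, Vegfa), 2 interferon genes (Isg15, Irf7) and the MHC class II gene Cd74, in CPM on log axes, in each of 11 cultures grouped by letter set. A-B-C is highest for the first 5 genes but lies near P-Q-R for Cd74, where H-I and M-N-O reach 56.8 to 136 CPM.

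Markers of other cell types were measured because the cultures could hold them. Summed fibroblast markers were at 86.6 to 117 CPM in the microglia-poor cultures and at 72.5 to 2969 CPM in the others, with the highest level in culture N, and 1 of 7 tested genes, Twist1, was counted as lower. Col1a1 alone was at 1285 CPM in N, against 3.81 to 216 CPM in the other 10 cultures. The median log2 difference of the fibroblast list was -1.55, but it was 0.28 against A-B-C alone and 0.42 against H-I alone. Of 28 extracellular matrix genes 1 was counted as lower (Col6a2) and 1 as higher (Lama4, a laminin chain, at 35.4 to 43.6 CPM against 12.6 to 29.7 CPM). Endothelial markers summed to 3.21 to 4.11 CPM against 5.51 to 12.6 CPM, and Pecam1, an adhesion molecule shared by endothelial and myeloid cells, was the 1 of 4 counted as lower. The 5 tested mural genes had a median log2 difference of 0.49, which was -0.01 against M-N-O alone, and 1 of them, Myh11, was counted as higher. Lymphocyte markers had 0 tested genes and summed to at most 0.161 CPM in the microglia-poor cultures. Neutrophil and monocyte genes summed to 5.20 CPM in R, against 0.498 to 1.73 CPM in the other cultures, and erythroid genes to 9.19 CPM in R, against 0.331 to 4.34 CPM. For these lists too, the shares of all genes were 5.87% counted as lower and 4.81% as higher. The part of these cell types in the differences between the classes was not tested. Ttr, the defining gene of choroid plexus, was at 1.06 to 74.1 CPM over the 11 cultures, with overlap of the classes.

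Of 18 genes of the cholesterol list, 3 were counted as higher (4.81% of all genes) and 0 as lower (5.87%). The 3 included the enzymes Lss (1.51-fold) and Cyp51 (1.43-fold). Of 18 genes of proliferation, 0 were counted, and Mki67 was at 23.4 to 31.7 CPM against 4.46 to 39.1 CPM. Of 8 genes of the opioid system, 6 were tested and 0 were counted. The mu receptor Oprm1, the main target of fentanyl, was at 0.580, 0.273 and 0.202 CPM in P, Q and R and at 0.0597 to 0.387 CPM in the others, too few counts to pass the filter.

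The rule did not use the response to fentanyl, which was tested in a model with a separate dose effect for each class. This asked whether the difference between dosed and untreated cultures was another in the cultures with few macrophage transcripts. For high dose vs. untreated, 0 of 12337 genes (0%) passed the test of a different response in the microglia-poor than in the microglia-containing cultures, and for low dose vs. untreated again 0 (0%). Unadjusted p was under 0.05 for 60 and 14 genes by edgeR and for 52 and 11 by DESeq2, fewer than the 617 that evenly spread p-values would give, and DESeq2 also counted 0 genes. With 1 microglia-poor culture per dose, no spread within this class entered the test, its lone cultures were assumed to vary like the others, and a count of 0 does not show equal responses.

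Within the microglia-containing class, low dose vs. untreated and high dose vs. untreated gave 0 genes each (0% and 0%) by edgeR and by DESeq2. Only 2 untreated cultures, A and M, entered, and differences between letter sets stayed in the error of this fit. A count of 0 therefore does not show that dose made no difference. Unadjusted p was under 0.05 for 72 and 74 genes by edgeR and for 83 and 92 by DESeq2, again fewer than 617. With the letter set as a block the counts were again 0 genes for both dose contrasts and both tests of a different response, with 570, 715, 107 and 351 genes at an unadjusted p under 0.05. The smallest adjusted p, by edgeR, was 0.0947 for high dose vs. untreated with the block and 1.0 without it.

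The 3 genes with the smallest p for a different high dose response were Tnnc2, Ckm and Actn3, all of skeletal muscle. Culture R stood above all other cultures for each. Tnnc2 was at 0.829 CPM in P, 1.16 in Q and 11.5 in R, against 0.843 to 3.94 CPM in the microglia-containing cultures, and Actn3 was at 1.82, 0.751 and 8.14 CPM against 1.09 to 3.0 CPM. Without R no such test can be made. For the low dose they were Spatc1l, Acot5 and RGD1561795, each at 3.15 CPM or less in all 11 cultures. Among dose contrasts of the microglia-containing class, S100a4, a calcium-binding protein, was among the 3 genes with the smallest p at both doses, at 21.0 and 23.2 CPM in untreated cultures A and M and at 31.4 to 46.9 CPM in the 6 dosed cultures, with log2 differences of 0.83 (SE 0.19) at the low and 0.83 (SE 0.19) at the high dose and an adjusted p of 1.0 by edgeR. The others were Plk5 and Ankrd55 at the low dose and Cst7 and Ptprcap at the high dose. With the letter set as a block the 3 genes of smallest p were others, Cxcl12, Cxcl6 and Cmtm7 at the low dose (smallest adjusted p 0.958 by edgeR) and Ostn, Vcam1 and Cxcl10 at the high dose (smallest adjusted p 0.0947 by edgeR).

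Levels of inflammatory genes by dose are given because culture R was high for several of them. Lcn2 was at 106, 179 and 1355 CPM in P, Q and R, at 121, 113 and 327 CPM in A, B and C, and at 67.2, 455 and 664 CPM in M, N and O. Its high dose vs. untreated difference was larger in the microglia-poor class by 1.22 on the log2 scale (95% interval -1.42 to 3.86), with an adjusted p of 1.0 by edgeR. C3 was at 40.5, 54.8 and 306 CPM in P, Q and R, and its difference of responses was 0.85 (95% interval -1.71 to 3.41). Ccl2, a chemokine that recruits monocytes, was at 12.7, 16.0 and 38 CPM in P, Q and R, against 14.7, 55.0 and 115 CPM in M, N and O, with a difference of responses of -0.94 (95% interval -5.13 to 3.26). In each letter set the high dose culture was above the untreated one for all 3 genes, with no untreated culture in H-I. Each interval spans an equal response as well as responses several-fold apart.

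**Figure D5:**
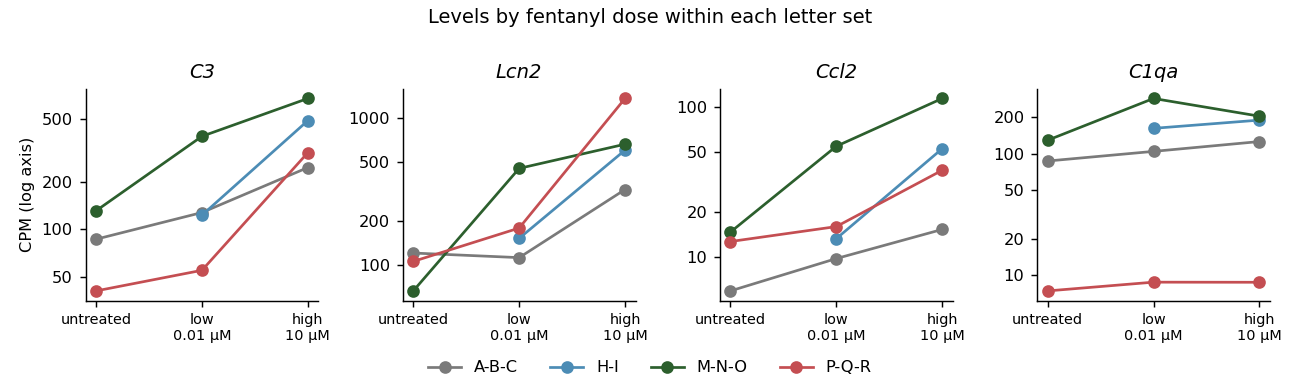
Levels of C3, Lcn2, Ccl2 and C1qa, in CPM on log axes, by fentanyl dose, with lines joining the cultures of a letter set (1 culture per point). The P-Q-R line lies far below the others for C1qa (7.46 to 8.80 CPM) and crosses them for Lcn2, where R reaches 1355 CPM.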

How the data were processed

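RNA of 12 cultures was sequenced by the authors, who used STAR for alignment (build rn6) and featureCounts for counting reads per gene. The deposited counts were used as given, with no normalization. The members and gene lists were chosen with earlier results of these data known. Classes were set by C1qa CPM (under 20, above 50), and culture G was left out. Genes were filtered with filterByExpr by class and fitted with the quasi-likelihood test of edgeR 4.0.16 (R 4.3.3) after TMM scaling, with dose as covariate, or with dose by class. Calls needed a Benjamini-Hochberg adjusted p under 0.05 and a log2 difference over 0.5 in size. The study's RUVseq factors were not used, since they would estimate the variation between cultures that separates the classes. DESeq2 1.42.0, other filters and left-out cultures were alternatives. The SE is the log2 difference over the square root of F. Of 456 listed symbols 437 were found, 2 under an older symbol. All listed genes could be named, with the 10 highest and 10 lowest counted genes that did not overlap and reached 5 CPM, and the 3 genes of smallest p where no dose test counted any. Floors of 3 counts cover counting error only. The closest pair of cultures, P and Q, had a mean chi-square of 6.80 per gene, more than counting error gives, and every culture was counted as its own sample. That excess does not show that cultures of a letter set are independent. Pairs within P-Q-R had 6.80 to 19.5, against 41.9 or more between P-Q-R and the other cultures. All errors and gene counts take P, Q and R as 3 samples. The fits were tested on simulated data in which every culture was drawn independently. With no letter set effect in them, these data cannot test what P, Q and R being 1 letter set does to the counts. No reference sequence of rn6 was used here. A few listed genes entered the fits and list counts but are not reported here by name.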

Additional observations from a re-analysis of the deposited data

Results flagged for a closer look

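A test of 50 values (the summed level of each gene list and the 20 named genes) asked whether 1 of the 8 microglia-containing cultures lay far from the others. In it 6 stood out, all in low dose culture N. The cutoff flags about 1 in 20 of independent, normally spread values. Fibroblast and extracellular matrix lists share Col1a1, Col1a2 and Col3a1, so the 6 are not independent and cannot be set against that rate. Fibroblast markers summed to 2969 CPM in N, against 72.5 to 499 CPM in the other 7 cultures, and extracellular matrix genes to 8710 CPM, against 1526 to 3000 CPM. Ligands of microglial receptors summed to 2653 CPM, against 1356 to 1673 CPM. Neuron markers summed to 3580 CPM, below the 4264 to 4824 CPM of the others. Fcna was at 50.8 CPM, against 18.4 to 28.9 CPM, and Ccr1 at 19.9 CPM, against 3.29 to 9.27 CPM. Without N, 617 genes were counted as higher and 741 as lower in the microglia-poor cultures, against 593 and 724 with it.

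Untreated culture G, which entered neither class, held C1qa at 270 CPM, above untreated cultures A (86.8 CPM) and M (129 CPM). It also held Ttr at 4006 CPM and Rbfox3 at 1.30 CPM, against 59.1 to 92.5 CPM of Rbfox3 in the 11 cultures compared.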

How the results depend on the processing

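For the 436 listed or named genes followed, 9002 values could be fitted over 21 alternatives, of which 388 moved by more than the spread between cultures (1 SD) and 0 changed the sign of a counted difference. The counts of higher and lower genes moved with the cultures used. Against A-B-C alone 2314 were higher and 2022 lower, against H-I alone 1168 and 1144, and against M-N-O alone 884 higher and 1120 lower. The error in these fits came only from the spread within P-Q-R and within the other letter set. Their larger counts therefore cannot be set against the main ones. With culture G added to the microglia-containing class they were 232 and 343. Leaving out 1 culture gave 104 to 745 higher and 202 to 816 lower, and the 0 counts of the dose tests stayed at 0. Without both R and N, an alternative chosen after seeing the data, 232 were higher and 276 lower. Without the genes of the 4 macrophage lists, also chosen afterwards, 593 and 670 remained. DESeq2 counted 857 and 1049. The median of the fibroblast list turned from -1.55 to 0.28 against A-B-C and 0.42 against H-I alone, and that of the mural list from 0.49 to -0.011 against M-N-O alone, and the cause was not tested. With at least 10 counts required in every culture, which drops genes scarce in any culture, the microglial identity median moved from -3.38 to -0.58. The cytokine median moved from -1.50 to -0.61, and that of the pattern recognition list from -0.97 to -0.49. The letter set was fitted as a block in the dose tests, with 0 genes counted in each. For the class comparison, where each letter set lies in 1 class, there is no such block. By replicate number no paired analysis was possible because the labels give none that groups share. With P left out neither test of a different response could be fitted, nor with Q the low dose one or with R the high dose one. At 3 counts a gene could be read in a microglia-poor culture only above 0.121 to 0.249 CPM.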
